A study of Mus musculus with 2 samples.

Results

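Fibroblast growth factor (FGF) ligands of the early embryo were read in a pair of embryoid body samples, 1 of them given recombinant FGF10. The ligand genes are Fgf8, Fgf17, Fgf18, Fgf4, Fgf5, Fgf15, Fgf7 and Fgf10. They were taken as every probe set of the array whose platform annotation names 1 of these genes and no other, which gave 14 probe sets for the 8 genes, out of 34945 probe sets naming 1 gene each and 18193 genes in all. A probe set is a group of short probes on an Affymetrix expression array that together read a transcript. The samples were embryoid bodies, aggregates of embryonic stem cells that have begun to differentiate, made in hanging drops from CGR8, a mouse embryonic stem cell line of strain 129 that was kept without feeder cells and with leukemia inhibitory factor. The control sample received differentiation medium with no added agent, and the FGF10 sample received the same medium with FGF10 protein at 100 ng/ml. The sample labels place both at day 2, while the design text has FGF10 added to embryoid bodies of 2 days and RNA taken 24 h later, so the stage carries that ambiguity. Both samples come from 1 cell line. The labels do not say how many embryoid bodies each sample pooled.

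FGF ligands are secreted proteins that bind receptor tyrosine kinases together with heparan sulfate and act largely through the ERK kinase cascade. Undifferentiated mouse embryonic stem cells make FGF4, which drives their own ERK signalling and readies them to leave self-renewal. Fgf5 marks the epiblast after implantation, and Fgf8 is expressed in the primitive streak, where it is needed for newly formed mesoderm and endoderm cells to move away. FGF7 and FGF10 are best known as mesenchymal signals to epithelia through the IIIb form of the receptor FGFR2. The array reads messenger RNA, so the value of the Fgf10 probe set concerns the cells' own Fgf10 transcript and not the protein that was added.

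Values are MAS5 signals, a linear brightness per probe set, and a ratio is the log2 of FGF10 over control, less 0.034, the median over probe sets that passed a signal filter. The filter kept probe sets with a mean signal over the arrays of at least 76.35, the median of all probe sets. A gene takes the ratio of its brightest kept probe set, and 11122 genes had one. There was 1 array per group, so no test can be made, no value has a replicate error, and each ratio describes these arrays only. From pairs of probe sets for the same gene (5213 genes), the SD of a single probe set's log2 ratio was put at 0.27. The difference within a pair spreads more widely than that. This SD covers error within the arrays and not variation between cultures. In a bulk sample, fewer cells of a type and less RNA per cell cannot be told apart.

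Of the 8 ligand genes, 5 had a probe set above the filter. Fgf8 was higher on the FGF10 array, Fgf4 and Fgf15 were lower, and Fgf17 and Fgf5 lay within 1.5-fold. Fgf7, Fgf10 and Fgf18 were near background on both arrays. Thus 1 of the 5 measured ligands was at least 1.5-fold higher, beside 5.41% of all genes, and 2 were at least 1.5-fold lower, beside 4.86% of all genes. The median log2 ratio of the 5 was 0.19, with a range of -1.56 to 1.81, while the median over all genes was -0.027. The measured ligands thus lay on both sides of 0, with Fgf8 and Fgf4 at the ends.

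**Figure D1:**
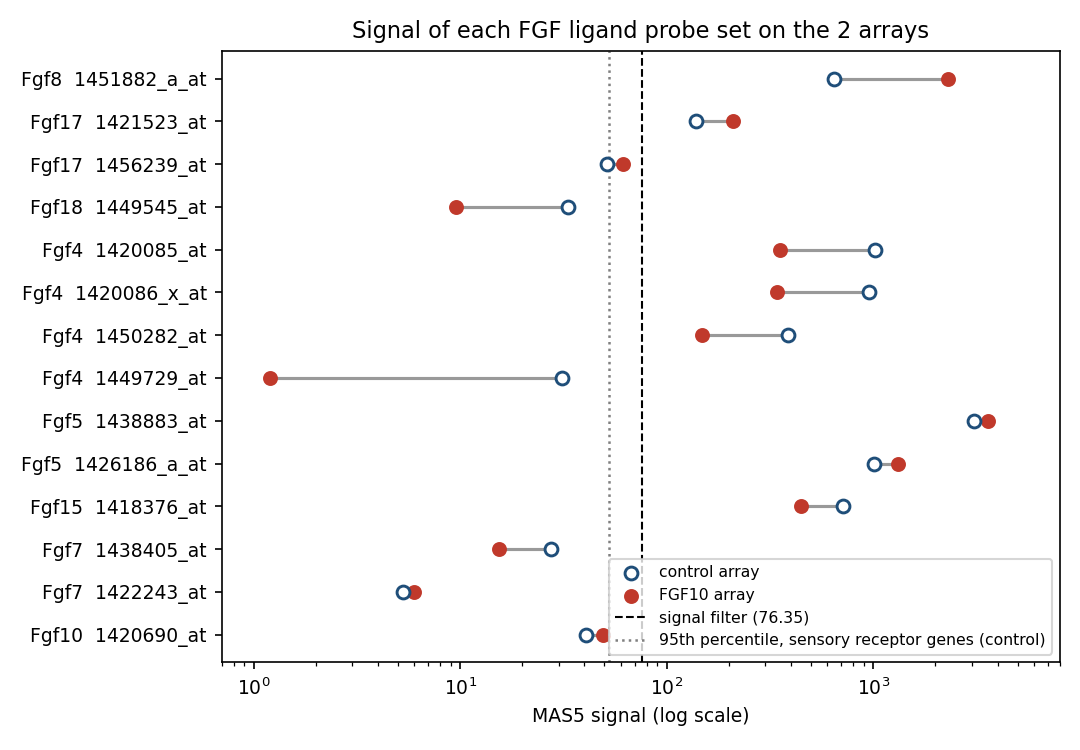
MAS5 signal (log axis) of each of the 14 FGF ligand probe sets on the control array (open points) and the FGF10 array (filled points), joined by a line for each probe set. The dashed line is the signal filter of 76.35 and the dotted line the 95th percentile of probe sets for olfactory, vomeronasal and taste receptor genes on the control array (52.4). Fgf8 lies to the right on the FGF10 array, the 3 bright Fgf4 probe sets and Fgf15 lie to the left, and every probe set of Fgf7, Fgf10 and Fgf18 lies under the filter.

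Fgf8, Fgf17 and Fgf18 form 1 subfamily of closely related ligands. Fgf8 was read by 1 probe set, with a signal of 643 without FGF10 and 2308.7 with it (1451882_a_at). The FGF10 array was the higher one by 1665.7 signal units, and the log2 ratio was 1.81, or 3.51-fold. Fgf8 stood 26th from the top among the 11122 genes, and 0.225% of genes had a higher ratio. In the group of genes of like brightness that holds Fgf8, the fourth of 5 groups by mean signal, 0.54% of genes were at least 2-fold higher, and over all genes 1.32% were. The suffix _a_at marks a probe set that reads several transcripts of 1 gene, and Fgf8 is known for its many spliced forms, which these probes do not separate.

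Fgf17, which the streak and later the midbrain-hindbrain boundary express, went from 138.4 to 209.8 on its brighter probe set (1421523_at). Its log2 ratio of 0.57 (1.48-fold) lay just under the 1.5-fold line at 0.58. It passed that line, at 0.60, when ratios were not centred. Its brightness group, the dimmest of the 5, had 10.5% of genes at least 1.5-fold higher, so a ratio of this size was common at that signal. The other Fgf17 probe set (1456239_at) had signals of 51.5 and 61.5 and was the brightest ligand probe set left outside the filter. The direction for Fgf17 therefore rests on 1 probe set. Fgf18, a ligand best known from bone and lung, was read at 33.3 without FGF10 and 9.6 with it (1449545_at). Both values are under the filter and under the 95th percentile of probe sets for sensory receptor genes, which was 52.4 and 45.7 on the respective arrays, so Fgf18 has no usable ratio. Of the 3 genes of the subfamily, Fgf8 alone passed 1.5-fold in these arrays.

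Fgf4 and Fgf5 belong to another subfamily. They are shown by the bases before their annotated starts because they are relatives with unlike ratios. Fgf4 was lower with FGF10 and Fgf5 lay within 1.5-fold. The promoter sequences are from RefSeq (build GRCm38.p6), which matched 5 of the 8 ligand genes here (Fgf4, Fgf5, Fgf7, Fgf10 and Fgf18, but not Fgf8, Fgf15 or Fgf17), and each run holds the 250 bases before the start on the + strand, 5′ to 3′. The Fgf4 run is chr7:144861136-144861385 and the Fgf5 run is chr5:98253934-98254183.
Fgf4: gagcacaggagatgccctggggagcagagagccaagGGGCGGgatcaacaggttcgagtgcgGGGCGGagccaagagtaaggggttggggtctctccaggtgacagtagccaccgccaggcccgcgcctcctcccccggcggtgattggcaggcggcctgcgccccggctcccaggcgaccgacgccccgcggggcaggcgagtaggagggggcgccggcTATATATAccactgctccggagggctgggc
Fgf5: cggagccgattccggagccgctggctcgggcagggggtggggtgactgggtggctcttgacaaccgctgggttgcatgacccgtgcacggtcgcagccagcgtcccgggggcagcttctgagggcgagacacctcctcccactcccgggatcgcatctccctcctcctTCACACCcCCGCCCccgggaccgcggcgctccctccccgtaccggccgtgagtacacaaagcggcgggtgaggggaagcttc
Capitals mark matches, on both strands, to 6 short motifs: TATAAA (the usual form of the box where the general machinery binds), TATATA (a variant of it), GGGCGG (a GC box), ATGCAAAT (the octamer that POU factors bind), TCACACC (a T-box core) and CACGTG (an E-box). The Fgf4 run holds TATATA at positions -30 and -28, counted back from the base before the start as -1, which overlap, and GGGCGG at -214 and -188. The Fgf5 run holds TCACACC at -82 and the reverse complement of GGGCGG at -74, and TATAAA occurs at position 35 after its start, outside the printed bases. In the 32851 promoter windows of the table, which run from 250 bases before to 50 after a start, TATATA was found in 5.67%, TATAAA in 13.6%, GGGCGG in 35.7%, TCACACC in 3.98%, ATGCAAAT in 1.74% and CACGTG in 7.15%. The printed runs are 71.2% and 70.8% G or C, against a median of 52.4% over the 250 bases before the start in all windows. These matches describe letters and not bound sites, and the arrays hold no measurement at the promoters.

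Fgf4, the ligand made by undifferentiated stem cells and the inner cell mass, was lower with FGF10 on the 3 of its 4 probe sets that passed the filter. The brightest (1420085_at) had a signal of 1015.1 in the control sample and 352.3 in the FGF10 sample. Its near twin (1420086_x_at) had 952.8 and 343.8, and a probe set from another source sequence (1450282_at) had 385.3 and 148.8. The FGF10 array was the lower one each time. The log2 ratios were -1.56, -1.50 and -1.41, and the brightest corresponds to 2.95-fold lower. The first 2 of these probe sets were designed from the same source sequence, so they are not separate evidence. Fgf4 was the 29th lowest of the 11122 genes, and 0.252% of genes had a lower ratio. Over all genes 1.29% were at least 2-fold lower, and in its brightness group, the third of 5, 0.495% were. Among the 2196 genes with at least 3 kept probe sets, 4 genes (0.182%) had every one of them at least 1.5-fold lower. In 2 genes (0.0911%) every one was at least 2-fold lower, and Fgf4 was among both groups. These shares count probe sets from the same source sequence separately, so they do not measure the support for Fgf4. The remaining Fgf4 probe set (1449729_at) had signals of 31.2 and 1.2, both near background, and gives no usable ratio.

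Fgf5 was bright and differed little. Its signals were 3069.9 in the control and 3576 in the FGF10 sample for 1 probe set (1438883_at), and 1007.3 and 1323.9 for the other (1426186_a_at). The FGF10 array was the higher one on both, by 0.19 and 0.36 on the log2 scale. The brighter ratio is 1.14-fold, and 25.4% of all genes had a higher one. Fgf4 and Fgf5 thus had ratios of opposite sign on every kept probe set, 3 for Fgf4 and 2 for Fgf5. The ratio of the brighter Fgf5 probe set is smaller than the SD of 0.27 for a single probe set, and the other, at 0.36, is larger. That SD pools kept probe sets of all brightness and is not specific to bright ones. With 1 array per group, the sign for Fgf5 is not established.

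Fgf15, the mouse counterpart of human FGF19 and a hormone-like ligand later made by the gut, is also expressed in early neural tissue. Its signal was 710.1 in the control and 449.2 in the FGF10 sample (1418376_at). The FGF10 array was lower by 260.9 signal units, a log2 ratio of -0.69 or 1.62-fold lower. In its brightness group, the same as that of Fgf4, 2.74% of genes were at least 1.5-fold lower, and over all genes 3.12% had a lower ratio. Fgf15 was the ligand just past the 1.5-fold line on the lower side, as Fgf17 was the ligand just short of it on the higher side.

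Fgf15 and Fgf4 are direct neighbours on mouse chromosome 7, in the order Fgf3, Fgf4, Fgf15 of protein-coding genes (RefSeq, GRCm38.p6). Fgf3, which the streak and hindbrain express, was dim, with signals of 82.8 and 74.4 (log2 ratio -0.19) on its brightest probe set. The next gene after Fgf15, listed as LTO1, was at -0.10, and Ccnd1, the cyclin D1 gene, at -0.21. The 6 other measured genes within 4 places of Fgf4 or Fgf15, Fgf3 among them, ran from -0.21 to 0.28 at their brightest probe sets. By that reading Fgf4 and Fgf15 had the lowest ratios measured in that stretch. Over all kept probe sets Fgf3 ran from -0.41 to -0.19 and Ccnd1 from -0.38 to 0.11, so the neighbours spread more than the brightest ones show. For Fgf8, on chromosome 19, the 7 other measured genes within 4 places ran from -0.18 to 0.57, the highest being its direct neighbour Fbxw4, which went from 253.1 to 385.5. These neighbours were looked up after the ligand values were known.

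Fgf7 and Fgf10 are the genes of this list that belong to the subfamily of the added protein. The cells' own Fgf10 transcript was read at 40.8 without and 49 with added FGF10 (1420690_at), 8.2 signal units apart and both under the filter. Fgf7 had signals of 27.6 and 15.5 on 1 probe set (1438405_at) and 5.3 and 6 on the other (1422243_at), which point in opposite directions. All of these lie under 76.35, where a difference in signal cannot be read as a difference in transcript level. Raised to the filter value they have equal signals on both arrays by rule, which says nothing about the transcripts. Against the 95th percentile of sensory receptor probe sets, Fgf10 was under it on the control array (40.8 against 52.4) and slightly over it on the FGF10 array (49 against 45.7), and Fgf7 was under it on both. Neither gene passed the filter, which does not show that the transcripts are absent.

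**Figure D2:**
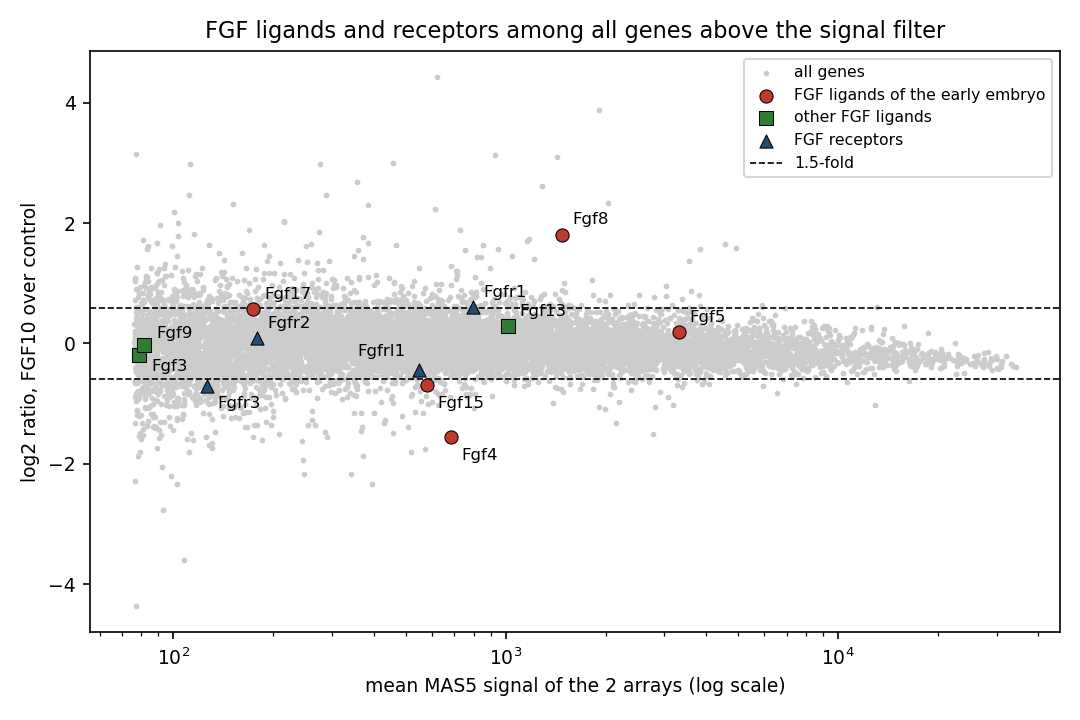
Log2 ratio of FGF10 over control against mean MAS5 signal (log axis) for the 11122 genes above the filter, each at its brightest probe set. Circles are the 5 measured FGF ligands of the early embryo, squares the 3 other FGF ligands and triangles the 4 FGF receptors that passed the filter, and dashed lines mark 1.5-fold. Fgf8 at 1.81 and Fgf4 at -1.56 stand at the edges of the cloud for their brightness, while the other FGF ligands lie between -0.19 and 0.29.

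Most of the remaining FGF family was too dim to measure. Of 14 other FGF genes on the array, 3 passed the filter, and 0 were past 1.5-fold in either direction. Over all genes 5.41% were higher and 4.86% lower by that much, so 0 of 3 says little. Fgf13, an intracellular member of the family that is not secreted, went from 904 to 1133.2 (0.29) and was at 0.52 on its dimmer probe set. Fgf9, a secreted ligand, had signals of 81.3 and 82.2 (-0.018), at the edge of the filter, as did Fgf3. The other 11 genes were near background by mean signal on all of their probe sets, Fgf2 among them at 17.2 and 2.2. On a single array, Fgf11 (23.7 without and 98.3 with FGF10) and Fgf14 (87.2 and 60.8) each had a signal above 76.35. With the ligands above, 8 of 22 FGF genes were measured. Of these, only Fgf8 was past 1.5-fold upward, beside 5.41% of all genes, and only Fgf4 and Fgf15 downward, beside 4.86%.

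Among the receptors that read these ligands, 4 of 5 were measured. Of the 4, 1 was at least 1.5-fold higher, beside 5.41% of all genes, and 1 lower, beside 4.86%. Fgfr1, the main receptor of the epiblast, went from 623.9 to 970.9 (0.60, just past 1.5-fold), but its other 2 probe sets were lower in ratio, down to 0.086. Fgfr2, whose IIIb form binds FGF7 and FGF10, had signals of 170.4 and 185.3 (0.087). These probe sets were not sorted by splice form. Fgfr3 went from 154.5 to 97.5 (-0.70). It lay in the dimmest brightness group, where 14.2% of genes were at least 1.5-fold lower. Fgfrl1, a receptor without a kinase domain, went from 627.5 to 471.5 (-0.45) with its other probe set at 0.12. Fgfr4 was near background. Of 14 adaptor and cofactor genes, 10 were measured, with a median of -0.096. Of the 10, 0 were past 1.5-fold, beside 5.41% of all genes higher and 4.86% lower. A count over so few genes does not set the list apart from all genes.

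Most genes that FGF and ERK signalling induce lay within 1.5-fold, as did most of all genes. Of 22 such genes 20 were measured, and their median was 0.17. Of the 20, 1 was past 1.5-fold upward, beside 5.41% of all genes, and 1 downward, beside 4.86%. These counts do not set the list apart from all genes. The early response gene Ier3 was at 1.86 (signals of 116.1 and 431.4) and Phlda1 at -0.65. Egr1, an immediate early transcription factor, was at 0.47, and the feedback inhibitor Spry4 at 0.39, with its probe sets running from -0.57 to 0.39.

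Marker lists for primitive streak, epiblast and stem cells, visceral endoderm and fibroblasts were read on the same arrays. All 8 primitive streak markers were at least 1.5-fold higher, beside 5.41% of all genes. The lists were chosen with earlier results of these data known, so such counts are descriptive and test nothing. The streak marker signals summed to 3031.8 without FGF10 and 14477.1 with it, and their median log2 ratio was 2.35. Mixl1 (3.87), Foxa2 (3.10), Mesp1 (2.68) and Gsc (2.46), transcription factors of the streak, had the largest ratios. Fgf8, at 1.81, lay inside the range of these markers, which was 0.71 to 3.87, and Fgf17, at 0.57, lay below it. The part of streak cells in the Fgf8 value was not tested. For the 8 epiblast and stem cell markers the summed signals were 75618.1 and 70166.7, and the median was 0.00044. At their brightest probe sets 1 of the 8, Utf1 (-0.73), was past 1.5-fold downward and 0 upward, beside 4.86% and 5.41% of all genes. The next largest ratios were those of Dnmt3b, a DNA methyltransferase gene (-0.50), Sall4 (0.26) and Nanog (0.22). The other Dnmt3b probe set was at -0.041, and the other Sall4 probe set was at 0.67, past 1.5-fold. Dnmt3b was the brightest of the list, at 26292.9 and 19016.6, and the sums over the other 7 were 49325.2 and 51150.1. Pou5f1 was at 0.073 and Sox2 at -0.0026. The part of these markers in the Fgf4 value was not tested. The 8 visceral endoderm markers had summed signals of 11267.7 and 7457.9 and a median of -0.61. Beside 4.86% of all genes, 5 of these markers were at least 1.5-fold lower. Among the 5 were Apoa1 (-1.27) and Hnf4a (-0.90, with its 3 probe sets running from -0.90 to 0.15). The part of these markers in the lower Fgf4 and Fgf15 signals was not tested. Of 8 fibroblast markers 6 were near background, namely Col1a1, Col3a1, Postn, Dcn, Lum and Twist2, and the other 2, Col1a2 and Thy1, had summed signals of 506.2 and 368.8. No marker was listed at 0. All 8 epiblast markers passed the filter, as the labelled stem cell origin would have.

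**Figure D3:**
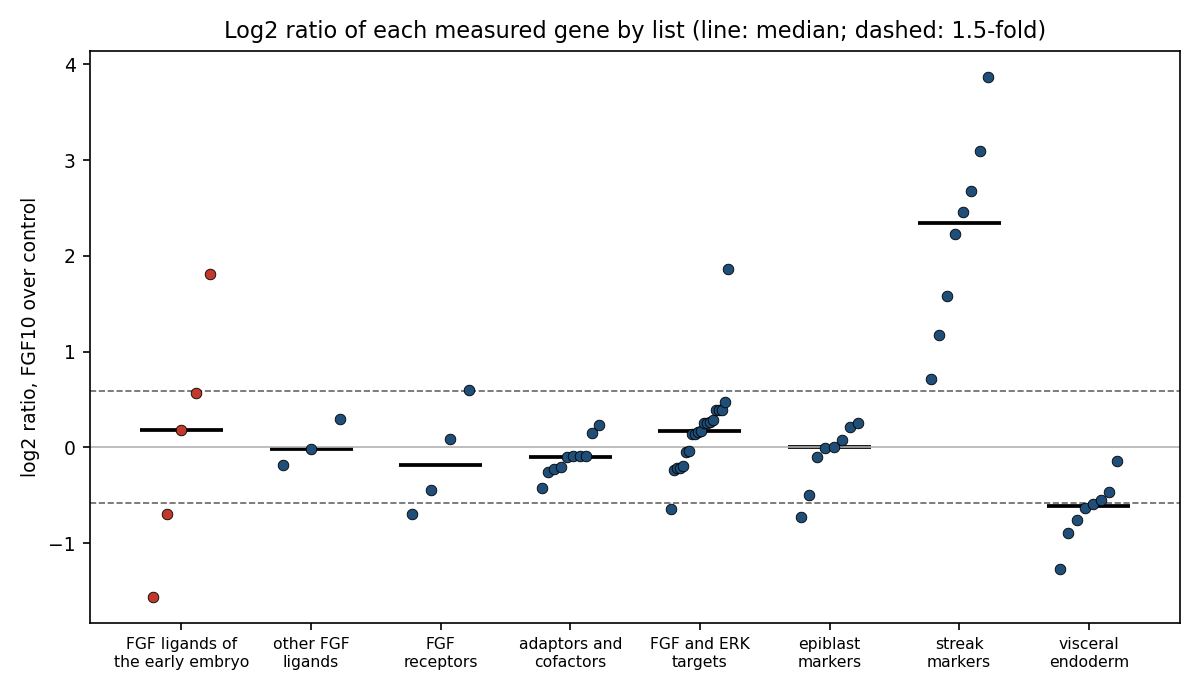
Log2 ratio of FGF10 over control for each measured gene, by gene list, with a line at each list's median and dashed lines at 1.5-fold. The 5 measured FGF ligands run from -1.56 to 1.81, the FGF and ERK targets have a median of 0.17, and the streak markers, all above 0.71, have a median of 2.35.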

How the data were processed

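Total RNA from 1 control and 1 FGF10 sample was labelled with biotin and hybridised to 1 Affymetrix array each. Per the submitters' processing notes the authors used MAS5, and the deposited signal is linear by its range, with version and settings not given in the sources used here. The mean of each array without its lowest and highest 2% is 500.003, as scaling to a common target leaves, so ratios hold relative to all other probe sets. No detection calls were used, and the number of arrays limits the precision. Medians were 75.7 and 77.9.

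Groups come from the agent label. Of 45101 probe sets, 64 chip controls were left out. Of the others, 34945 had 1 gene, 932 several and 9160 none listed in the platform annotation. All 14 ligand probe sets had a gene identifier in the RefSeq gene table (GRCm38.p6). The log2 ratio, filter and gene rule are given with the results, and genes were counted past 1.5-fold with no test. The text names all 8 ligands, every other measured FGF gene and receptor, and up to 4 genes with the largest ratios from each other list (fewer from some); further genes were named after their values were seen. "Near background" means a mean signal under 76.35. For comparison, 83 probe sets of olfactory, vomeronasal and taste receptor genes had a median of 11 and 8.4. The ligands and lists were chosen with earlier results of these data known. Alternatives were no centring, quantile or loess normalization, an offset of 20.5, signals raised to the filter value, other filters, the mean over probe sets, no _x_at or _s_at probe sets, and thresholds of 2-fold and 3-fold. Ratios were computed in Python 3.11.15 with pandas 2.3.3 and statsmodels 0.14.6, and the procedure was tested on simulated data.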

Additional observations from a re-analysis of the deposited data

How the results depend on the processing

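With 1 array per group, nothing here speaks to variation between cultures, and signals under the filter have no usable ratio. Over 11 other settings the ratio ran from 1.78 to 1.85 for Fgf8, -1.60 to -1.49 for Fgf4, 0.19 to 0.27 for Fgf5 and -0.74 to -0.66 for Fgf15, and over 10 it ran from 0.50 to 0.60 for Fgf17, each without a change of sign. Several settings could move these ratios little or not at all. A change of filter altered them only through the median subtracted. Fgf8 has 1 probe set, and raised signals, the mean over probe sets and leaving out _x_at and _s_at probe sets kept it at 1.81. The narrow ranges are thus partly fixed by the rules. Fgf17 left the measured genes at the filter on the 75th percentile. Without a filter, and with signals too dim for a usable ratio, Fgf10 was at 0.24, Fgf7 at -0.85 and Fgf18 at -1.81, and with the filter at the 95th percentile of sensory receptor probe sets Fgf10 was at 0.23. The ligands at least 1.5-fold higher were 2 without centring, and those lower were 4 without a filter, 1 at 2-fold and 0 at 3-fold, since Fgf4 was 2.95-fold lower. Over all genes, 602 were higher and 540 lower, but the balance turned to 531 and 606 after quantile and 529 and 612 after loess normalization, and was 690 and 468 without centring. The counts became 2516 and 2895 without a filter, 236 and 94 at the 75th percentile, 147 and 144 at 2-fold and 43 and 26 at 3-fold, and 981 were lower at the receptor-based filter. No paired analysis was possible because each group has 1 array and the labels carry no replicate numbers.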

Other observations

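Among the adaptor and cofactor genes of the FGF pathway, the largest differences were small. The adaptor gene Frs3 had signals of 191.9 without FGF10 and 146.5 with it (log2 ratio -0.42), and the genes of the FGF-binding proteins Fgfbp3 and Fgfbp1 were at -0.26 and -0.23. Ptpn11, the gene of the phosphatase SHP2, which FGF receptors need to activate ERK, had ratios from -0.28 to 0.23 over its 3 probe sets, the brightest being the highest. Klb, the co-receptor gene for hormone-like ligands such as FGF15, had signals of 161.1 and 155.1 (-0.089), and its relative Kl was near background.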
